A study of Homo sapiens with 15 samples.

Results

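BLTP3A, ECM2, ANKFN1, APOL6 and ARHGAP25 are 5 protein-coding genes that were higher after NP than after DMSO in A2058 cells, an established human melanoma line, and that are not common targets of the transcription factor ATF4. They were picked for that rise, so their difference between NP and DMSO is given below as a description with no test. Tests are given only for the other 2 compounds, whose arrays did not define that rise. Those arrays are not untouched, since the genes were chosen with earlier results of these data known. In the main fit the spread behind these tests was also estimated over all arrays, including NP and DMSO. The 5 genes were found through the RefSeq accessions of the array annotation and have 8 of the 58201 probes. Each gene gave 1 of the 26824 features (genes or transcripts) that were tested, and all 5 passed the filter on dim probes. BLTP3A carried the older symbol UHRF1BP1 when the array was designed.

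The cells were grown in medium with serum and exposed for 8 hours to NP (3 µM), metformin (5 mM) or phenformin (50 µM), or to a vehicle alone, with 3 replicates for each of the 5 groups and 15 single-dye Agilent arrays in all. NP is the name on the samples while neopetasin stands in the title of the series, and the methods of the study name petasin for this line, dose and time. The arrays do not show which compound it was. NP is set against DMSO, and metformin (MET) and phenformin (PHEN) are set against water (W), as the record of the series does. The methods of the study set the biguanides against DMSO instead, and the values for that choice are given with the vehicles below. All groups are 1 cell line, so that the replicates are separate experiments with the same cells and not separate tumors.

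ATF4 is the transcription factor of the integrated stress response, which lowers general protein synthesis and switches on genes for amino acid supply, transport and redox balance. Biguanides inhibit complex I of the mitochondrial respiratory chain, and impaired respiration is a trigger of that response. The 5 genes here belong to other families. BLTP3A is a bridge-like lipid transfer protein, a family of long proteins with a greasy groove along which lipids pass between membranes. ECM2 is a secreted matrix protein with leucine-rich repeats. ANKFN1 combines ankyrin repeats with a fibronectin type III domain and is little studied in human cells. APOL6 is an intracellular member of the apolipoprotein L family, whose genes respond to interferon. ARHGAP25 is a GTPase-activating protein for Rac and is best known from white blood cells.

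The stretch of 250 bases before the annotated start of BLTP3A, ECM2 and ANKFN1 is shown so that its composition below can be read against the letters. The motif counts below also cover 50 bases after the start and the windows of ARHGAP25, which are not shown. The sequences are those of RefSeq on GRCh38.p14, written 5′ to 3′ on the strand of the gene, with CG pairs in capitals. BLTP3A lies on the plus strand (chr6:34791833-34792082), ECM2 on the minus strand (chr9:92535991-92536240) and ANKFN1 on the plus strand (chr17:56153225-56153474).
BLTP3A: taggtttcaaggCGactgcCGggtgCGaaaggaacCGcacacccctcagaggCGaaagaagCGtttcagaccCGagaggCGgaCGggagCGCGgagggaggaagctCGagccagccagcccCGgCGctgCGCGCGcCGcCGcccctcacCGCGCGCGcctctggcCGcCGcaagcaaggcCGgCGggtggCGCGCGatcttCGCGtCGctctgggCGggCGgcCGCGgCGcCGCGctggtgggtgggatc
ECM2: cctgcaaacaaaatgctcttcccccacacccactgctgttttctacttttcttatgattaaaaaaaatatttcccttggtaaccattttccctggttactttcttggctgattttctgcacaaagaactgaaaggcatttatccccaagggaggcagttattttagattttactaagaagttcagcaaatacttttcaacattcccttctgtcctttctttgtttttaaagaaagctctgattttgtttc
ANKFN1: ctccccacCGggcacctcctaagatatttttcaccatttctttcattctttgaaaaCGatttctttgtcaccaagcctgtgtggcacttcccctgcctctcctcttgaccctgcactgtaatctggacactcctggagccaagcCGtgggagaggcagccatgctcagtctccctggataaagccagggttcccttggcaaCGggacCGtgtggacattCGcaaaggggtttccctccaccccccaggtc
The BLTP3A stretch held 40 CG pairs and 74.4% G and C. The ECM2 stretch held 0 CG pairs and 36.0% G and C, and the ANKFN1 stretch held 6 pairs and 55.2%. The median over 35116 promoters was 11 CG pairs and 58.0%. ARHGAP25 has 3 annotated starts, with 1, 7 and 11 CG pairs. In the 6 windows of these 4 genes, from 250 bases before to 50 after the start, the letters TGATGNAA (the C/EBP-ATF response element, searched on both strands) occurred in 0, against 3.62% of all promoters and 9 of 42 promoters (21.4%) of a list of ATF4 targets. TGACGTCA (the cAMP response element) also occurred in 0 of 6, against 1.85% of all. The interferon-stimulated response element occurred in 1, that of ECM2, where the letters TTTCATTTTC, read on the strand of the gene, lie from base -4 to base 5 counted from the start, against 3.57% of all promoters. APOL6 was not searched.

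The arrays were checked first. SOX10, MITF, PMEL, DCT and S100B, markers of the melanocyte lineage, were well above background on all 15 arrays. The lineage markers MLANA and TYRP1 were so too, at a lower level, and TYR was on 13 of 15. Of the markers of dedifferentiated melanoma, AXL and NGFR were well above background on all 15 and EGFR on 5. The epithelial markers EPCAM, CDH1 and KRT5 were above background on 0. Between 25799 and 31925 probes were well above background on the DMSO and NP arrays and between 31407 and 45007 on the water and biguanide arrays, and no spot was saturated. DMSO and NP lay on other slides than water and the biguanides, so that slide and vehicle cannot be told apart. Within each of these sets, replicates 1 and 2 shared a slide and replicate 3 had another. Every difference within a replicate number is therefore a difference within a slide. Each value is a log2 intensity from which the 75th percentile of its array was subtracted. A gene was called where limma gave a change of at least 1.5-fold (0.585 on the log2 scale) and an adjusted p of at most 0.05. By that rule 10 of 26824 features (0.0373%) were called in NP against DMSO, 0 in metformin against water, and 7 (0.0261%) in phenformin against water. None of 8 melanocyte markers was called. An unadjusted p of at most 0.05 was found by limma for 659 features (2.46%) with metformin and for 2.35% with phenformin.

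**Figure D1:**
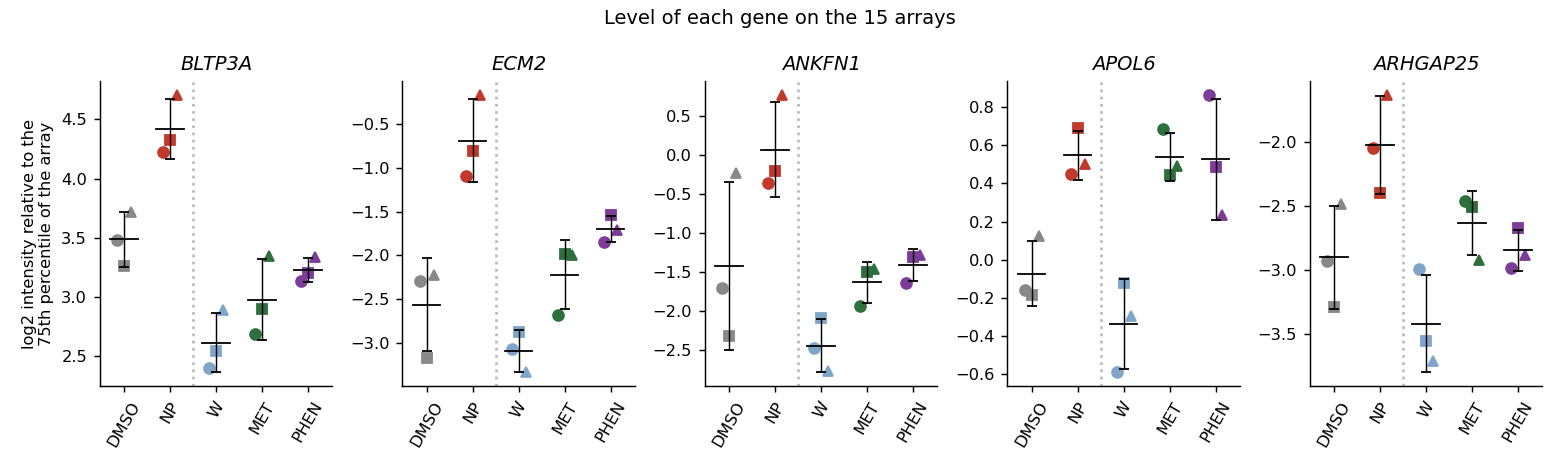
Log2 intensity minus that of the 75th percentile (y axis) for the 5 genes on the 15 arrays, by group (x axis). Circles, squares and triangles are replicates 1, 2 and 3, horizontal lines and bars are the mean and SD (n = 3), and the dotted line separates the DMSO set from the water set. For 4 of the 5 genes every NP array lay above every DMSO array, and for all 5 every phenformin array lay above every water array.

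The plot of levels by array shows the 5 genes together. In NP against DMSO, which chose them, 15 of 15 replicate pairs were higher with NP (all 3 pairs were higher for 14.3% of features), and 4 of the 5 genes did not overlap between the groups, as did 3.02% of the features with values on all those arrays. The mean difference ran from 1.54-fold for APOL6 to 3.68-fold for ECM2. All 5 genes were higher in all 3 pairs with metformin (15 of 15), as were 22.2% of features, and 4 of the 5 genes had every metformin array above every water array, against 3.48% of features. With phenformin all 5 were again higher in all 3 pairs (15 of 15), as were 12.2% of features, and all 5 had every phenformin array above every water array, against 3.83%. The arrays hold RNA of whole cultures, so that a change in the share of cells that carry a transcript and a change in its amount per cell cannot be told apart. None of the 5 was called with either biguanide by limma, with an adjusted p of 1 for each gene with metformin and of 0.383 or more with phenformin. At an unadjusted p of at most 0.05 limma found 4 of the 5 higher with metformin (all but ANKFN1), against 1.38% of all features higher at that p, and 4 of the 5 higher with phenformin (all but ARHGAP25), against 0.816%. Under the alternatives described below, this count for metformin was 2 of 5 without replicate 2. It was 3 of 5 without replicate 3, without the replicate block or with quantile normalization, and 5 of 5 with a slide term or a fit of the groups compared. For phenformin it was 3 of 5 without replicate 1. It was 5 of 5 without the replicate block, with a slide term, with quantile normalization or with probes above background on all 15 arrays. By the methods' paired t-test, unadjusted, it was 2 of 5 with metformin and 3 of 5 with phenformin. The median log2 difference of the 5 was 0.82 with metformin and 0.87 with phenformin, where the median of all features was 0.00 and -0.03. With normexp, described below, the median of the 5 was 0.42 and 0.56. Both biguanides were compared with the same water arrays, so that low values there enter both results.

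BLTP3A, the lipid transfer protein, had the smallest difference with metformin. Its level was 3.48, 3.26 and 3.72 on the DMSO arrays (replicates 1 to 3) and 4.22, 4.33 and 4.71 on the NP arrays, so that every NP array lay above every DMSO array. It was 2.41, 2.54 and 2.89 with water, 2.68, 2.90 and 3.35 with metformin, and 3.14, 3.20 and 3.34 with phenformin. Metformin overlapped water, whereas phenformin lay above water on every array. NP was 0.93 ± 0.17 (SD of 3 pairs) above DMSO on the log2 scale, or 1.91-fold. Metformin was 0.37 above water (SE 0.11, 95% CI 0.11 to 0.62), and limma gave an adjusted p of 1. For phenformin the difference was 0.61 (SE 0.11, 95% CI 0.36 to 0.87), with limma's adjusted p of 0.383. The means ascended from water through metformin, phenformin and DMSO to NP. Each neighbor overlapped the next except that NP lay above DMSO on every array. Orders of means, here and for the genes below, run across both vehicle sets, where slide and vehicle cannot be told apart.

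ECM2, the secreted matrix protein, had the largest difference of the 5 with NP and with phenformin. Its level was -2.29, -3.18 and -2.22 with DMSO and -1.09, -0.81 and -0.16 with NP. It was -3.07, -2.87 and -3.34 with water, -2.68, -1.98 and -2.00 with metformin, and -1.84, -1.54 and -1.71 with phenformin. No treated group overlapped its vehicle. The log2 difference was 1.88 ± 0.60 (SD of 3 pairs) for NP, or 3.68-fold. Metformin was 0.87 above water (SE 0.30, 95% CI 0.21 to 1.54, limma adjusted p = 1) and phenformin 1.40 above it, or 2.63-fold (SE 0.30, 95% CI 0.74 to 2.06, limma adjusted p = 0.776). With phenformin 13 of the 26824 features (0.0485%) had a larger mean rise. In the order water, DMSO, metformin, phenformin, NP, water overlapped DMSO and DMSO overlapped metformin. Phenformin lay above metformin on every array, and NP above phenformin, though NP and phenformin also differed in slide and vehicle. Summed in the same arrays relative to the 75th percentile set to 1, the 5 fibroblast markers COL1A1, COL1A2, DCN, LUM and PDGFRB came to 5.25 to 5.72 with DMSO, 5.05 to 6.34 with NP, 4.43 to 5.23 with water, 4.65 to 4.78 with metformin and 4.61 to 4.74 with phenformin. With the biguanides that sum stayed within the range of water, and with NP it ran both below and above the range of DMSO. COL1A2 was well above background on 2 of the 15 arrays, and none of the list was called. The second probe of ECM2, for another transcript, was not well above background on any of the 15 arrays and gave no measurement of it. ECM2 has a low level here, and with the normexp background correction, which adds an offset of 50 to every intensity, its differences were 0.94 for NP, 0.45 for metformin and 0.70 for phenformin.

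ANKFN1 differed most between replicates of the same vehicle. Its level was -1.71, -2.33 and -0.24 with DMSO and -0.37, -0.20 and 0.77 with NP. The groups overlapped because DMSO replicate 3 was high, and NP replicate 3, on the same slide, was also the highest of its group. Within pairs NP was higher by 1.34, 2.13 and 1.01. The level was -2.48, -2.09 and -2.78 with water, -1.94, -1.50 and -1.47 with metformin, and -1.64, -1.31 and -1.28 with phenformin, so that both biguanides lay above water on every array. Metformin was 0.82 above water (SE 0.41, 95% CI -0.09 to 1.72, limma adjusted p = 1) and phenformin 1.04 above it (SE 0.41, 95% CI 0.13 to 1.95, limma adjusted p = 1). From low to high the means were those of water, metformin, DMSO, phenformin and NP. Only the step from water to metformin and the step from phenformin to NP had no overlap. The latter step also crosses slides and vehicles. With normexp the differences fell to 1.03, 0.42 and 0.54 for NP, metformin and phenformin.

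**Figure D2:**
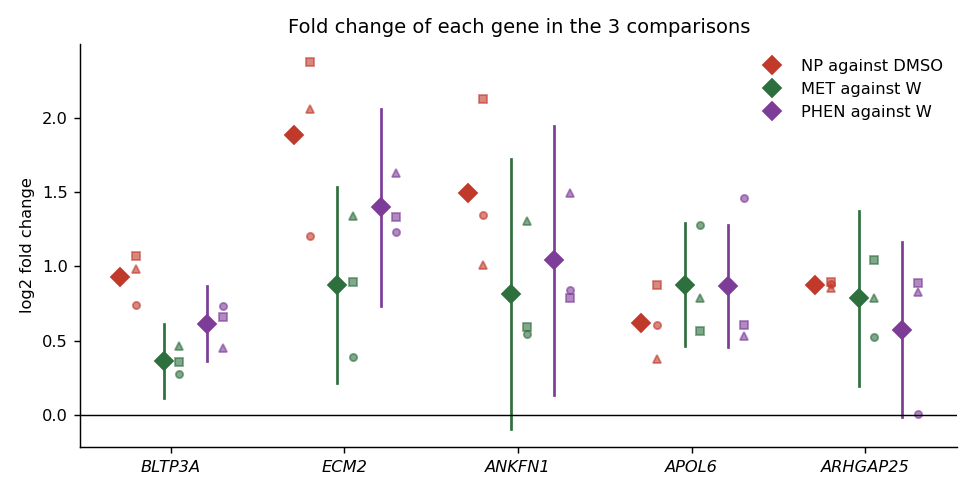
Log2 fold change (y axis) of each gene (x axis) for NP against DMSO, metformin against water and phenformin against water. Diamonds are means, vertical lines the 95% confidence intervals of limma for the biguanides, and small circles, squares and triangles the differences within replicates 1, 2 and 3. NP has no interval because the genes were chosen on it. The 15 pair differences of each comparison lie above 0, the lowest being that of ARHGAP25 in phenformin replicate 1.

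APOL6, the apolipoprotein L, was measured by 3 probes. The brightest gave -0.16, -0.19 and 0.13 with DMSO and 0.45, 0.69 and 0.50 with NP. It gave -0.59, -0.12 and -0.30 with water, 0.68, 0.45 and 0.49 with metformin, and 0.86, 0.49 and 0.23 with phenformin. All 3 treated groups lay above their vehicles on every array and overlapped each other. NP was 0.62 ± 0.25 (SD of 3 pairs) above DMSO, the smallest difference of the 5 genes with NP. Metformin was 0.88 above water (SE 0.18, 95% CI 0.47 to 1.29) (limma adjusted p = 1). Phenformin was 0.87 above water (SE 0.18, 95% CI 0.45 to 1.28, limma adjusted p = 0.776). Water replicate 1 was the lowest array of all, and without replicate 1 the phenformin difference was 0.57. The mean of its probes gave 0.56 with phenformin, and normexp gave 0.40 with NP. The order of means was water, DMSO, phenformin, metformin and NP, and only the step from DMSO to phenformin had no overlap.

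The other 2 probes of APOL6 were dimmer. A_24_P7594 was well above background on 14 of 15 arrays and read -3.50, -3.69 and -2.86 with DMSO, -3.10, -2.86 and -2.60 with NP, -3.75, -4.18 and -3.89 with water, -3.60, -3.58 and -3.56 with metformin, and -3.72, -4.28 and -3.39 with phenformin. Only its metformin arrays all lay above the vehicle. In a limma fit over all 58201 probes it was 0.36 higher with metformin (SE 0.21, adjusted p = 1) and 0.14 with phenformin (SE 0.21, adjusted p = 1). A_23_P155052 was not well above background on any DMSO array but was on 2 of 3 NP arrays. Since NP replicate 3 was not well above background either, no lower limit is given for its NP difference. That probe was 0.71 higher with metformin (SE 0.37) and 0.67 with phenformin (SE 0.37) than with water, where 1 of the 3 water arrays was not well above background, and both groups overlapped water (limma adjusted p = 1 for both). The mean differences of the 3 probes thus shared the sign in all 3 comparisons but differed in size. With phenformin only the brightest probe lay above water on every array, and A_24_P7594 was lower than water in replicate 2 (-0.10). For A_23_P155052 with NP the sign rests partly on readings not well above background.

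**Figure D3:**
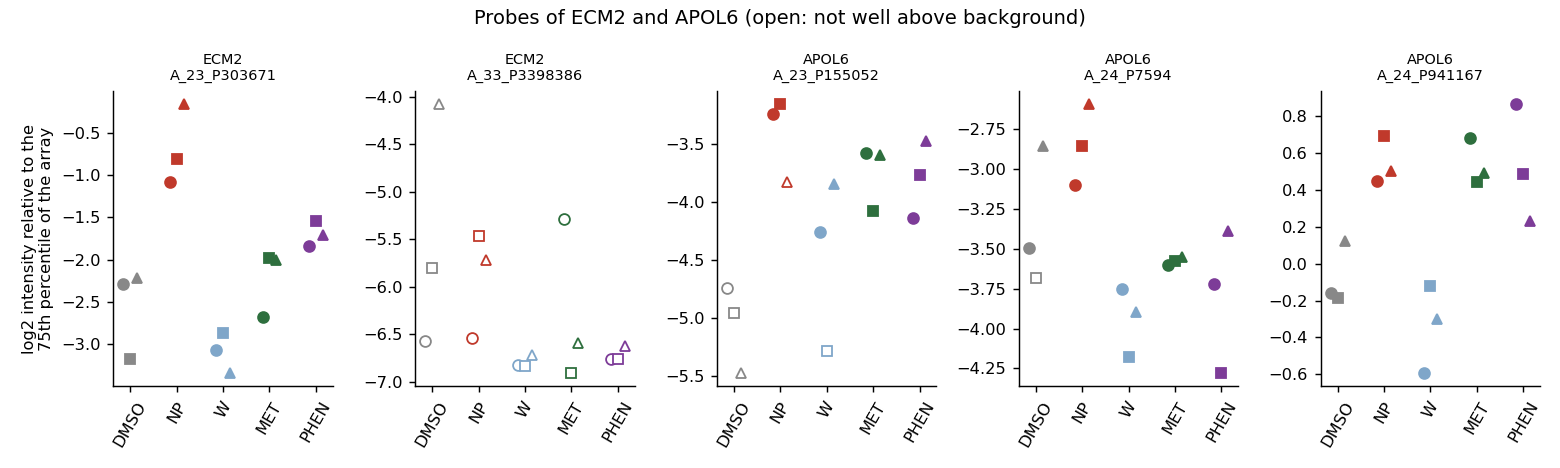
Log2 intensity minus that of the 75th percentile (y axis) by group (x axis) for the 2 probes of ECM2 and the 3 probes of APOL6, with replicates 1, 2 and 3 as circles, squares and triangles. Open symbols were not well above background, among them all 15 arrays for the second ECM2 probe, and all 3 DMSO arrays and NP replicate 3 for APOL6 probe A_23_P155052.

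ARHGAP25, the Rac regulator, was dim but well above background on all 15 arrays. It read -2.93, -3.29 and -2.48 with DMSO and -2.04, -2.39 and -1.63 with NP, and the pair differences of 0.88, 0.89 and 0.85 were the closest of the 5 genes. The level was -2.99, -3.55 and -3.71 with water, -2.46, -2.51 and -2.92 with metformin, and -2.99, -2.67 and -2.88 with phenformin. Metformin lay above water on every array. Phenformin did so only narrowly, because water replicate 1 and phenformin replicate 1 were almost equal. Metformin was 0.79 above water (SE 0.26, 95% CI 0.20 to 1.37, limma adjusted p = 1). Phenformin was 0.57 above it (SE 0.26, 95% CI -0.02 to 1.16, limma adjusted p = 1), 0.86 without replicate 1 and 0.89 after quantile normalization. With normexp the differences were 0.32 for NP, 0.35 for metformin and 0.29 for phenformin. The means ascended from water through DMSO, phenformin and metformin to NP, and only NP lay clear of the group before it. That group, metformin, lay on other slides and had another vehicle. The leukocyte markers PTPRC, CD3E and CD14 together summed, relative to the 75th percentile set to 1, to 0.68 to 0.912 with DMSO, 0.641 to 0.753 with NP, 0.697 to 0.894 with water, 0.577 to 1.09 with metformin and 0.585 to 0.698 with phenformin. With NP and with phenformin the top of that range was lower than in the vehicle, and with metformin it was higher. PTPRC and CD14 were well above background on all 15 arrays and CD3E on 11, and none of these 3 was called.

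The 2 vehicles differed for these genes. All 5 had a higher mean with DMSO than with water, by 0.26 (APOL6) to 1.03 (ANKFN1) on the log2 scale, whereas the median over all features was -0.12. BLTP3A was the only one of the 5 with every DMSO array above every water array, as were 9.19% of features. Set against DMSO in place of water, 3 of the 5 genes had a higher mean with metformin and 4 with phenformin. BLTP3A then differed by -0.51 with metformin and -0.26 with phenformin, and ANKFN1 by -0.21 and 0.01, and for both genes each biguanide overlapped DMSO. ECM2 differed by 0.34 and 0.87, ARHGAP25 by 0.27 and 0.05, and APOL6 by 0.61 and 0.60. APOL6 lay above DMSO on every array with both biguanides and ECM2 with phenformin, and the others overlapped. For the biguanides against DMSO, the share of all features with a higher mean or with no overlap was not counted. The higher level of BLTP3A and ANKFN1 with metformin, and of BLTP3A with phenformin, thus held only against water. These are values and not a test, since the DMSO arrays helped to choose the genes and vehicle and slide cannot be told apart.

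The relatives of the 5 genes were described next, from lists of each family without the 5. Of 9 other bridge-like lipid transfer proteins tested (among them VPS13D, BLTP1, BLTP2 and BLTP3B), none was called in any comparison (at an unadjusted p of at most 0.05 limma found 1 with NP and 0 with either biguanide), and their median log2 change was 0.01 with NP, -0.12 with metformin and 0.03 with phenformin. BLTP3B, the closest relative of BLTP3A, was -0.24 with NP, the lowest of that list, and VPS13D was 0.23, the highest. With phenformin VPS13D was the lowest, at -0.38, and BLTP2 the highest, at 0.07. With metformin the list ran from -0.17 (BLTP1) to 0.05 (BLTP2). BLTP3A, at 0.37 with metformin and 0.61 with phenformin, lay above the range of its relatives in both comparisons. Its 0.93 with NP lay above the range as well, but BLTP3A was picked for that rise.

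Of 17 small leucine-rich proteoglycans and ECM2, 9 were tested, and the 8 other than ECM2 had medians of 0.05, 0.19 and -0.08 with NP, metformin and phenformin, with none called and 0 at an unadjusted p of at most 0.05. PODNL1 and ASPN, which lies before ECM2 on chromosome 9, had the extreme fitted values with NP but were not well above background on any DMSO or NP array, so that no difference is given for them there. The 6 others ran from -0.04 to 0.21 with NP. The highest was DCN, with 1 of 3 DMSO arrays and 2 of 3 NP arrays well above background. PODNL1 was highest with metformin, at 0.55, with 2 of 3 water arrays well above background, and ASPN was lowest with phenformin, at -0.96, with 2 of 3 phenformin arrays. The remaining extremes were LUM at -0.05 with metformin and DCN at 0.08 with phenformin. ECM2 lay above all 8 with both biguanides. It also lay above those 6 with NP, but it was picked for that rise.

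The apolipoprotein L list held 4 tested genes beside APOL6, with medians of -0.14, 0.02 and -0.25 and none called. At an unadjusted p of at most 0.05 there was 1 with NP and 0 with either biguanide. APOL3 had the largest change with NP, at 0.70 (limma adjusted p = 0.594), above that of APOL6, and was -0.01 with metformin. APOL1 was -0.28 with NP and -0.69 with phenformin, the lowest in both. APOL2 was highest with metformin (0.09) and phenformin (0.07). A list of 38 interferon-induced genes had medians of -0.03, -0.02 and 0.01 and 0 called by limma in any comparison. At an unadjusted p of at most 0.05 limma found 1 with NP and 0 with either biguanide. With NP the highest fitted value was that of OAS1, which was not well above background on any DMSO array. The 36 genes measured in both groups ran from -0.40 (OAS2) to 1.17 (XAF1, with 1 of 3 DMSO arrays well above background). The extremes with the biguanides were XAF1 at 0.66 and DTX3L at -0.24 with metformin, and XAF1 at 0.44 and OAS1 at -0.51 with phenformin. XAF1 was well above background on 2 of 3 water arrays. OAS1 was so on 2 of 3 water arrays and on 1 of 3 phenformin arrays.

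Among 26 ARHGAP genes other than ARHGAP25 none was called, 2 with NP and 0 with either biguanide had an unadjusted p of at most 0.05, and the medians were -0.02, -0.05 and -0.01. ARHGAP44 had the highest fitted value with NP but was not well above background on any DMSO or NP array. The 25 others ran from -0.41 (ARHGAP31) to 0.44 (ARHGAP9) with NP, and the range of all 26 was -0.22 (ARHGAP22) to 0.43 (ARHGAP9) with metformin and -0.38 (ARHGAP33) to 0.14 (ARHGAP23) with phenformin. ARHGAP25 lay above these ranges with both biguanides. It did so with NP too, but it was picked for that rise. FANK1, the other gene with ankyrin repeats and a fibronectin type III domain, was not well above background on any DMSO array, and was 0.00 with metformin and 0.13 with phenformin, where ANKFN1 was 0.82 and 1.04.

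**Figure D4:**
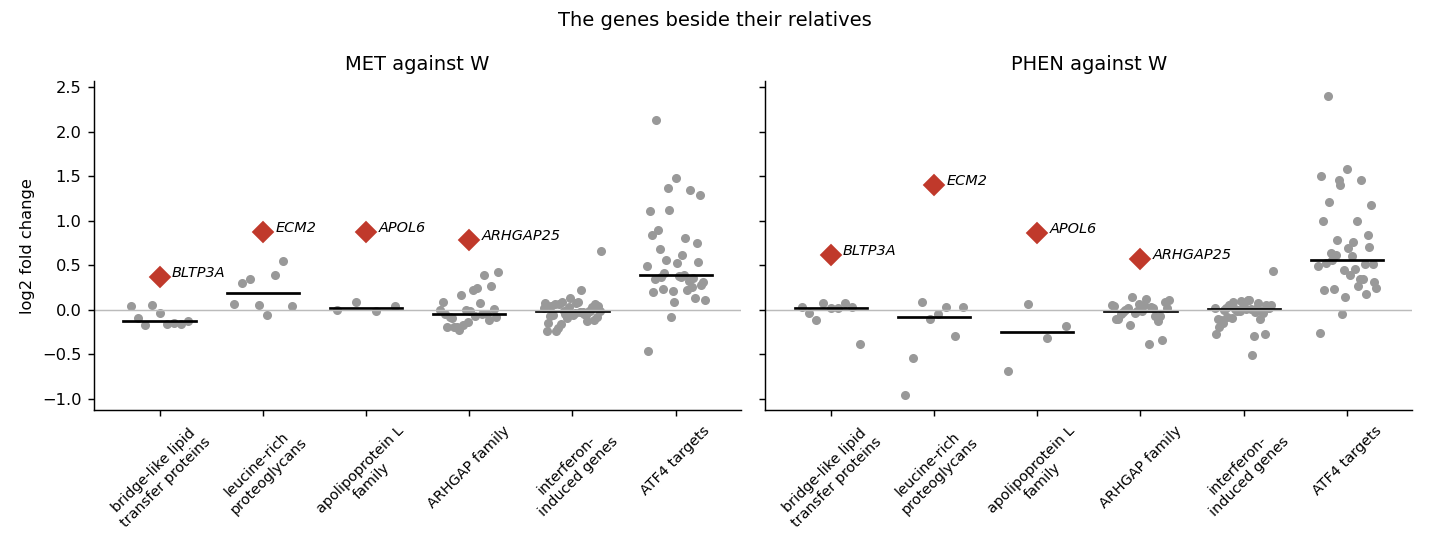
Log2 fold change (y axis) with metformin (left) and phenformin (right) against water for the genes of 6 lists (x axis). Grey circles are single genes, black lines the median without the named genes, and red diamonds the named genes where they belong to a list. The 4 named genes that have a list lie above all of their own relatives, whereas the ATF4 targets shown at the right have medians of 0.39 and 0.56.

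The ATF4 targets, in contrast to these families, were higher as a group. Of 37 tested, 36 had a higher mean with NP, 35 with metformin and 35 with phenformin, with medians of 0.81, 0.39 and 0.56. With NP limma called TRIB3, SESN2, GDF15, NUPR1 and JDP2 (5 of 37). With phenformin it called CHAC1, ASNS, SESN2, NUPR1 and JDP2 (5 of 37), and with metformin 0, though 24 had an unadjusted p of at most 0.05. With metformin and phenformin the 5 genes of interest, with medians of 0.82 and 0.87, lay in the same direction as these targets. Their median with NP was 0.93, but they were picked for that rise, so its direction was fixed by the choice. The number called depended on the setting. Without the replicate block 1 ATF4 target was called with NP and 0 with phenformin. A slide term gave 20 with NP, 1 with metformin and 7 with phenformin, and quantile normalization gave 10, 0 and 5.

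The genes next to the 5 on their chromosomes were not called in any comparison. SNRPC and ANKS1A flank BLTP3A on chromosome 6, and their largest difference in any of the 3 comparisons was -0.16, for ANKS1A with NP. IPPK, beyond ECM2 on chromosome 9, was between -0.13 and 0.06. PCTP, before ANKFN1 on chromosome 17, was between -0.22 and -0.11. TAF11 overlaps BLTP3A and CENPP overlaps ECM2, and both are named after their values were seen. TAF11 was -0.18 with NP, -0.12 with metformin and -0.04 with phenformin, and CENPP 0.28, 0.02 and 0.11. The neighbors NOG, MB, APOL5, PROKR1 and BMP10 did not pass the filter.

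Across the 15 arrays, centered on the mean of each vehicle set, the correlation between pairs of the 5 genes ran from 0.64 (BLTP3A and ARHGAP25) to 0.91 (BLTP3A and ECM2). These arrays include the 6 on which the genes were picked for a rise, which by itself makes their levels vary together. Over the 9 water and biguanide arrays alone the correlation ran from 0.22 (BLTP3A and ARHGAP25) to 0.97 (ECM2 and ANKFN1). Among 16485 features with a symbol and all values, those most like BLTP3A were HOXB9 (Pearson r 0.978), MID1IP1 (0.970) and GPT2 (0.970). ECM2 was most like GPT2 (0.949), JDP2 (0.949) and XBP1 (0.947). For ANKFN1 they were CBS (0.960), GTPBP2 (0.959) and NHSL1-AS1 (0.955). The 3 nearest to APOL6 were GYPC (0.921), CPT1B (0.881) and FLJ43315 (0.855), and to ARHGAP25 AARS1 (0.890), IL21R (0.872) and SLC30A2 (0.850). Of these features GPT2, JDP2 and AARS1 are on the list of ATF4 targets described above, and the others are not. That list is a selection, and whether the others are targets was not tested. CBS makes cystathionine in transsulfuration, GPT2 is a mitochondrial alanine transaminase and AARS1 charges alanine onto its tRNA. These values also include the DMSO and NP arrays, share slides, rest on 15 arrays and are given as a description with no test. GPT2 differed by 1.06, 0.56 and 0.78 with NP, metformin and phenformin.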

How the data were processed

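Spot intensities of 15 single-dye arrays were deposited after local background subtraction and detrending by Agilent Feature Extraction, for which the file headers give version 10.7.3.1 and the submitters' processing notes 9.1. The authors also deposited log2 values, scaled to one 75th percentile and set to 4 where lower. That table was used as an alternative, and 31.3% to 50.8% of its values per array lie at the floor. Control spots were removed, outlier spots were set to missing (258 values of the selected probes), repeated spots were averaged, and each array was scaled on the log2 scale by its 75th percentile. In at least 1 group, 32912 of the 58201 probes passed the software's flag for signal well above background on all 3 arrays. The brightest of these represented each gene, and 26824 features with values on at least 8 arrays were kept, 16581 of them with a symbol. Names came from RefSeq: 31100 of 33080 probes with a RefSeq accession matched. The brightest probe was chosen over all arrays.

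The 5 groups and the replicate number were fitted over all 15 arrays with limma 3.58.1 in R 4.3.3, and two-sided p-values were adjusted by Benjamini-Hochberg across the features. The methods of the study pair replicates. Arrays of the same number deviated together from their group means, with r of 0.31, 0.33 and 0.65 for NP and DMSO, 0.86, 0.44 and 0.80 for metformin and water, and 0.30, 0.24 and 0.40 for phenformin and water. For NP the highest r with a DMSO array of another number was 0.29 (replicate 1), 0.24 (replicate 2) and -0.40 (replicate 3), so that the first 2 numbers are paired only weakly there. The fit was tested on simulated data. Python 3.11.15, pandas 2.3.3, numpy 2.4.6 and matplotlib 3.10.9 were used for the rest.

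The 5 genes and the lists (families, interferon-induced genes, ATF4 targets, markers) were chosen with earlier results of these data known. A marker gene is not reported here and was left out of its list. Beside the 5 genes, the text names the called genes of a list, the extremes of the family and interferon lists, the next protein-coding gene on each side of a gene, and the 3 features most like it. Alternatives were a slide term, a fit without the replicate block, normexp with an offset of 50 on the median spot signal, quantile normalization, the authors' table, no filter or one on all 15 arrays, the mean of probes, a fit of the groups compared, the methods' paired t-test (run here against water for the biguanides), and leaving out each replicate. DMSO in place of water for the biguanides was added after the data were seen, as values with no test. The 3 arrays per group limit the precision.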

Additional observations from a re-analysis of the deposited data

How the results depend on the processing

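All 5 genes kept a positive difference in each comparison under every alternative that kept its vehicle. With DMSO in place of water, chosen after seeing the data and given as values, metformin differed by -0.51 for BLTP3A, -0.21 for ANKFN1, 0.34 for ECM2, 0.61 for APOL6 and 0.27 for ARHGAP25, and phenformin by -0.26, 0.015, 0.87, 0.60 and 0.055 in that order. With limma their adjusted p with the biguanides stayed between 0.161 and 1 over the alternatives. The methods' paired t-test, run here against water and not against DMSO as the study did for the biguanides, without adjustment and at 1.5-fold, passed ARHGAP25 with metformin (0.79) and BLTP3A (0.61), ECM2 (1.40) and ANKFN1 (1.04) with phenformin, and 214, 124 and 168 features with NP, metformin and phenformin. After Benjamini-Hochberg adjustment it passed 0 in each. Differences with NP that moved by more than the spread of pairs were those of ECM2 (0.94) and ARHGAP25 (0.32) with normexp, ARHGAP25 (0.80) with quantile normalization and APOL6 (0.92) with the mean of probes. Normexp adds an offset to every intensity, which lowers the differences of dim probes by construction.

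Without the replicate block 3 features were called with NP, 0 with metformin and 0 with phenformin. A slide term beside the block gave 63, 2 and 16. Normexp gave 26 with NP and 2 with metformin, quantile normalization 17 with NP, and probes above background on all 15 arrays 26 with NP. With no filter, and with a fit of the groups compared, 0 were called with NP and 0 with phenformin. Leaving out replicate 1, 2 or 3 gave 0 calls in each comparison. The median of the leucine-rich proteoglycan list with ECM2 in it turned from -0.05 to 0.00031 with phenformin under quantile normalization. The causes of these shifts in counts were not tested. Signal over background limits ECM2, ARHGAP25 and the dim APOL6 probes.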
